A study of Caenorhabditis elegans with 44 samples.

Results

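miR-240 and miR-786 are neighbouring microRNA hairpins of *Caenorhabditis elegans*, and either arm of each can be cut out as a mature strand, named 5p or 3p. All table rows with either name were taken, which gave 4 of the 437 mature strands, namely miR-240-5p, miR-240-3p, miR-786-3p and miR-786-5p. All 4 passed the filter on low counts, set at 10 per library on average, as did 272 strands in all. Small RNAs had been sequenced from whole wild-type N2 worms that received no treatment and grew at 25 °C, with 1 library for each hour between 5 h and 48 h after synchronised first-stage larvae reached food. The 44 libraries carried no replicates, so the scatter of hours about each fit stands in for a spread between replicates, and p-values measure scatter within this single population. In whole animals, fewer cells that express a strand cannot be told apart from less of it per cell.

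Hairpins that lie close together on one strand of a chromosome are usually cut from one primary transcript by Drosha and then processed by Dicer into a duplex. An Argonaute protein keeps the guide strand of each duplex, and the passenger strand is usually lost. miR-786 is known for its part in the defecation motor program, a rhythm of muscle contractions paced by calcium waves of the intestine. It acts in the posterior intestinal cells where each wave starts, worms without the cluster have long and irregular cycles, and the fatty acid elongase gene *elo-2* is a known target. Less is known of miR-240.

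In the reference annotation WBcel235, both hairpins lay on the plus strand of chromosome X. The miR-240 hairpin (WBGene00003334) ran over 97 bases from 7882622 to 7882718, with miR-240-5p at 7882643 to 7882665 and miR-240-3p at 7882682 to 7882703. The miR-786 hairpin (WBGene00045343) ran over 90 bases from 7882751 to 7882840, with miR-786-5p at 7882766 to 7882789 and miR-786-3p at 7882804 to 7882826. Only 32 bases separated the hairpins, and 219 bases held both. No protein-coding gene overlapped them, and the nearest were *pcyt-2.2*, 1453 bases away on the plus strand, and C39D10.8, 1673 bases away on the minus strand. A further hairpin, miR-8203 (WBGene00255565), is annotated on the minus strand across miR-786 from 7882764 to 7882824. Its strands were almost silent, with at most 4 counts of miR-8203-5p and 7 of miR-8203-3p in any library, and neither passed the filter.

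Library totals had a median of 10678292 counts and a maximum of 14672735 at 31 h. The lowest total, 1669246 at 38 h, lay well under the next one, 7059421 at 17 h. Values below are normalised counts, that is, counts rescaled so that every library sums to the mean total of 10571268. Intervals given with single values are 95% Poisson intervals for counting error, and they treat reads as independent molecules, which PCR copies are not.

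All 4 strands were scarce in the early hours, rose from 17 h or 18 h on, and stayed far above their early level to the end. Both strands of miR-786 and miR-240-5p rose in 2 steps with a pause between them, while miR-240-3p went on rising. The level of miR-240-5p in normalised counts was 125 at 8 h (with an interval of 103 to 150) and 61.5 at 16 h (47.7 to 78.1). It reached 7538 at 22 h, stood at 4893 at 26 h and 24372 at 31 h, and was down to 9492 by 35 h. For miR-240-3p the level was 63.5 at 8 h and 19.3 at 16 h (11.9 to 29.5), then 1003 at 22 h, 2016 at 26 h, 7154 at 31 h and still 6787 at 35 h. Between 22 h and 26 h miR-240-5p thus dipped while miR-240-3p rose 2.01-fold, and from 27 h on both rose further, miR-240-5p to a peak of 25481 at 30 h.

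The gut regulator miR-786-3p held 14.8 normalised counts (interval 8.10 to 24.9) at 8 h, 9.18 (4.40 to 16.9) at 16 h, and later 397 at 22 h, 510 at 26 h, 2525 at 31 h and still 2360 at 35 h. Its partner miR-786-5p had no count at 8 h and 16 h, where 3 counts would have been a level of 3.18 and 2.75. It then held 53.0 at 22 h and 49.2 at 26 h, and later 282 at 31 h and still 262 at 35 h. miR-786-3p stood between 396 and 402 in all 4 libraries from 22 h to 25 h, the flattest stretch of any of the 4 strands in the pause. The 5p strand of miR-786 had no count in 7 of the 44 libraries, all of them before 17 h.

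**Figure D1:**
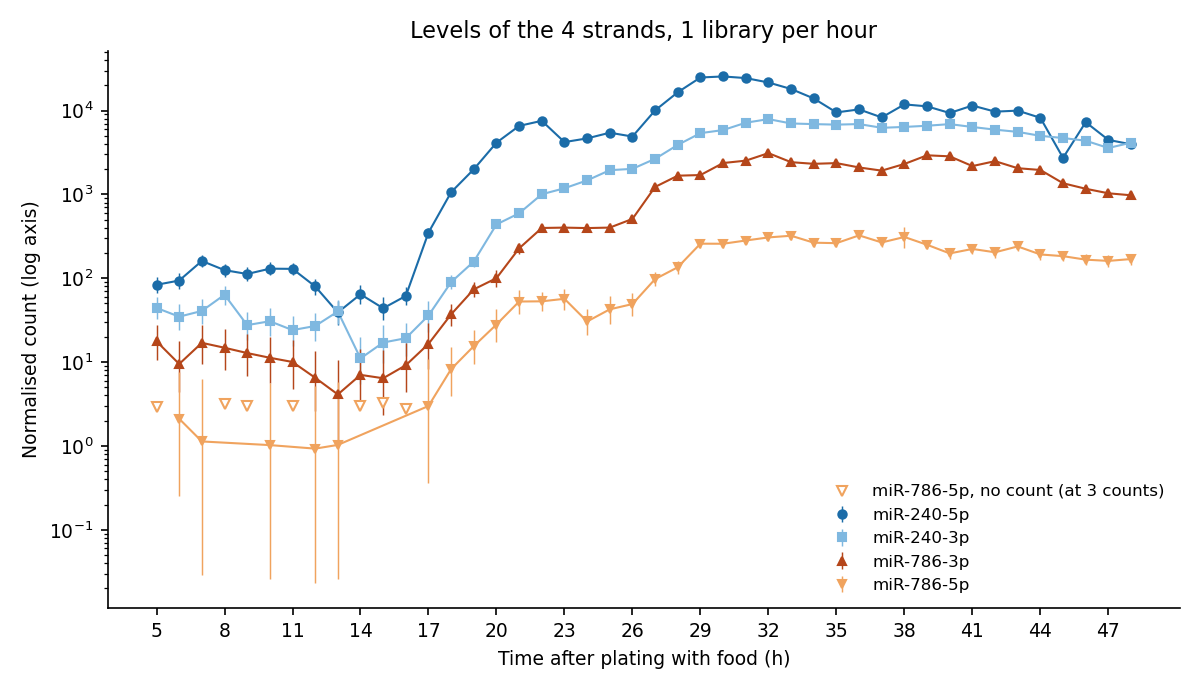
Normalised counts of the 4 strands on a log axis against hours after plating, 1 point per library with 95% Poisson intervals; open triangles mark libraries without a miR-786-5p count, drawn at the level of 3 counts. All strands leave their early level at 17 h or 18 h and all but miR-240-3p pause after 22 h; at 31 h miR-240-5p stands at 24372 and miR-786-5p at 282.

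The onset was sharp. From 16 h to 17 h miR-240-5p rose 5.70-fold (exact 95% counting interval 4.33 to 7.59), the steepest hourly step of that strand. The same step was 1.86-fold for miR-240-3p (0.995 to 3.52) and 1.79-fold for miR-786-3p (0.692 to 4.71), so at this depth a rise of these strands at 17 h could not be told from counting error. The second step opened between 26 h and 27 h, by 2.05-fold for miR-240-5p (1.98 to 2.13), 2.41-fold for miR-786-3p (2.15 to 2.70), 1.99-fold for miR-786-5p (1.36 to 2.95) and 1.32-fold for miR-240-3p (1.24 to 1.40). All 4 intervals lay above 1.

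The whole rise was more than 200-fold. Counts pooled over 29 to 35 h, scaled to library totals, exceeded those pooled over the 9 libraries of 8 to 16 h by 228-fold for miR-240-5p (exact 95% counting interval 213 to 245), 235-fold for miR-240-3p (208 to 266) and 265-fold for miR-786-3p (214 to 334). For miR-786-5p the ratio was 837, with an interval of 286 to 4063, because those 9 early libraries held only 3 counts of it between them. The fold rises of the other 3 strands were of like size, with intervals that overlapped.

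The first comparison asked whether the strands followed the molts, which recur about every 7 h at this temperature. An edgeR quasi-likelihood model with a line and a 7 h cosine and sine was fitted to the 28 libraries of 8 to 35 h, and a strand was called oscillating at a Benjamini-Hochberg adjusted p under 0.05 with an amplitude of at least 0.5 log2 units. None of the 4 strands was called, where 39 of 272 strands (14.3%) were called. The amplitudes were 0.39 ± 0.34 (SE) log2 units for miR-240-5p, 0.38 ± 0.27 for miR-240-3p, 0.45 ± 0.24 for miR-786-3p and 0.37 ± 0.26 for miR-786-5p. Their adjusted p-values in edgeR ran between 0.453 and 0.760, no member had an unadjusted p under 0.05, and DESeq2 and limma also called 0 of 4. miR-786-3p, the strand tied to a rhythm of the gut, was thus not called rhythmic with the period of the molts. The line of this fit follows a rise in steps only roughly. That misfit adds to the SE, so a weak rhythm of these strands could be missed. That gut rhythm runs on a scale far shorter than the sampling interval and was not measured here.

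The line of the same fit asked for gradual change, called at an adjusted p under 0.05 and at least 1 log2 unit over the window. All 4 strands rose, where 76 of 272 (27.9%) rose, and they took places 11, 13, 14 and 15 among the 272 fitted changes, miR-786-3p being the first of them. The fitted change over 8 to 35 h was 10.60 ± 0.61 log2 units for miR-786-3p (edgeR adjusted p = 9.44e-14), 10.14 ± 0.66 for miR-240-3p (3.83e-12), 10.02 ± 0.75 for miR-786-5p (4.14e-13) and 9.73 ± 0.81 for miR-240-5p (4.62e-09). The observed 35 h over 8 h difference was smaller, at 7.31 log2 units for miR-786-3p, 6.25 for miR-240-5p and 6.74 for miR-240-3p. For miR-786-5p, without a count at 8 h, none is given. Residuals of adjacent hours were correlated, at 0.84 for miR-240-5p, 0.83 for miR-240-3p, 0.84 for miR-786-3p and 0.77 for miR-786-5p, against a median of 0.377 over all strands. A least-squares fit with autocorrelated residuals used log2(normalised count + 8) in place of counts, so its changes are not on the edgeR scale. In it the change stayed past the threshold for miR-786-3p (6.75 log2 units, adjusted p = 0.016) and miR-786-5p (5.09, adjusted p = 0.016). It did not for miR-240-5p (6.08, adjusted p = 0.22) or miR-240-3p (6.45, adjusted p = 0.076). Under that fit 47 of 272 strands (17.3%) rose, against 71 in limma on the same values with independent residuals.

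Comparing whole 7 h cycles averages a 7 h rhythm out. The last cycle compared, 43 to 48 h, held only 6 libraries, so there such a rhythm does not fully average out. miR-240-5p had a lowest, median and highest level of 39.1, 112 and 130 normalised counts in the 7 libraries of 8 to 14 h, 43.8, 1062 and 6554 at 15 to 21 h, 4203, 5437 and 16510 at 22 to 28 h, and 9492, 21593 and 25481 at 29 to 35 h. miR-786-3p had 4.11, 10.0 and 14.8 at 8 to 14 h, 6.42, 37.1 and 227 at 15 to 21 h, 396, 402 and 1671 at 22 to 28 h, and 1700, 2365 and 3102 at 29 to 35 h. The ranges of miR-786-3p did not overlap between 15 h and 35 h, whereas for miR-240-5p each of these cycles overlapped the following one. Those of miR-240-3p did not overlap either, with 17.1 to 595 at 15 to 21 h, 1003 to 3891 at 22 to 28 h and 5372 to 7896 at 29 to 35 h. For miR-786-5p the range of 15 to 21 h, 0 to 52.7, overlapped that of 22 to 28 h, 30.5 to 135. Its range at 29 to 35 h was 258 to 321. The share of all strands with ranges apart in these cycles was not counted, so these ranges are a description only.

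The cycle fits, the 22 to 28 h line and the ratio fits treated adjacent hours as independent. Their p-values do not allow for the correlation of adjacent hours given above. In edgeR the cycle of 15 to 21 h was higher than that of 8 to 14 h for all 4 strands, where 26 of 272 strands (9.56%) were higher. The change was 4.38 ± 0.57 log2 units for miR-240-5p (adjusted p = 7.6e-07), 4.72 ± 1.29 for miR-786-5p (9.86e-06), 2.79 ± 0.51 for miR-786-3p (2.63e-05) and 2.58 ± 0.47 for miR-240-3p (4.04e-05). The miR-240-5p and miR-786-5p changes were the larger pair, though that of miR-786-5p starts from almost no counts and depends on how a count of 0 is treated. The cycle of 22 to 28 h was again higher than that of 15 to 21 h for all 4 strands, where 25 of 272 (9.19%) were higher. Here the order turned round, with 3.43 ± 0.43 log2 units for miR-786-3p (adjusted p = 1.81e-07), 3.40 ± 0.45 for miR-240-3p (4.52e-07), 2.19 ± 0.45 for miR-786-5p (0.000195) and 1.91 ± 0.55 for miR-240-5p (0.00806).

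The cycle of 29 to 35 h was higher than that of 22 to 28 h for 3 of the 4 strands, where 25 of 272 (9.19%) were higher. The change was 2.06 ± 0.39 log2 units for miR-786-5p (edgeR adjusted p = 7.21e-05), 1.75 ± 0.42 for miR-786-3p (0.00114) and 1.73 ± 0.44 for miR-240-3p (0.00199). miR-240-5p changed by 1.37 ± 0.55 log2 units at an adjusted p of 0.0501, at the edge of the threshold. It was called with TMM factors (0.0447), with DESeq2 size factors (0.0352), with a filter of 50 counts (0.0473) and in the DESeq2 test (0.0184). It was also called when the library of 13, 14, 15, 16, 17, 20, 21, 28, 35 or 45 h was left out, with adjusted p-values down to 0.0203 without 28 h. Leaving out 15 h, which lies in neither cycle, kept the change at 1.37 log2 units and lowered its SE to 0.48.

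**Figure D2:**
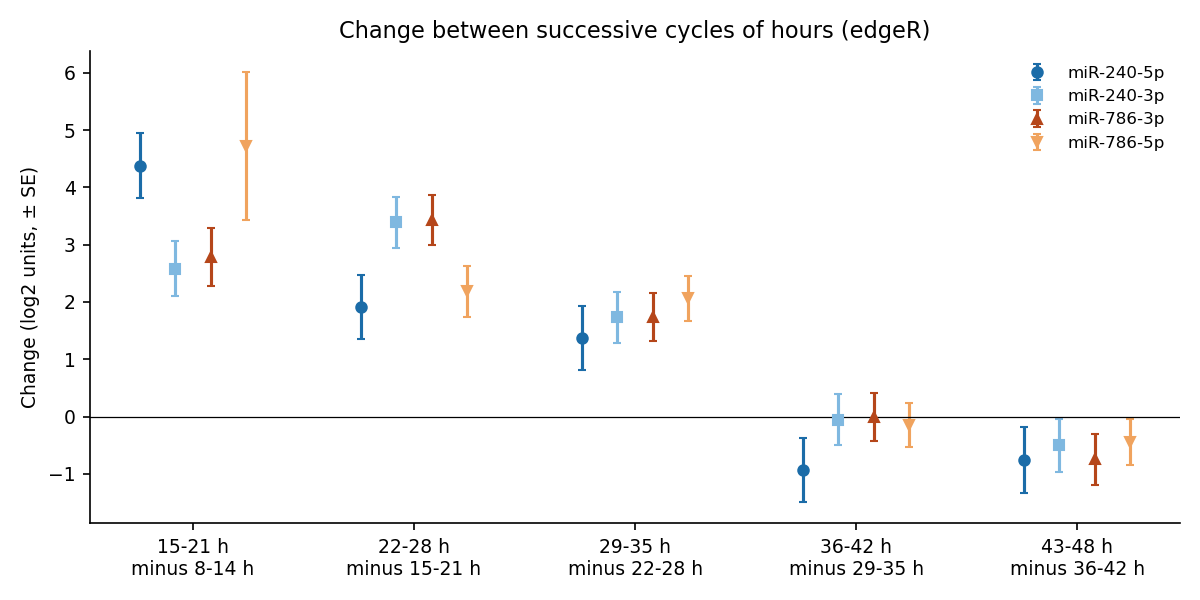
Change in log2 units of each strand from a cycle of hours to the following one, with standard errors from edgeR, 6 or 7 libraries per cycle. The 15 to 21 h changes are 4.38 for miR-240-5p and 2.79 for miR-786-3p, the 22 to 28 h changes 1.91 and 3.43, and the changes into 36 to 42 h and 43 to 48 h lie at or below 0.

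After 35 h the strands held or declined. The lowest, median and highest level of miR-240-5p was 9492, 21593 and 25481 normalised counts at 29 to 35 h, 8272, 10312 and 11830 at 36 to 42 h and 2724, 5863 and 9967 at 43 to 48 h. That of miR-786-3p was 1700, 2365 and 3102 at 29 to 35 h, 1919, 2305 and 2924 at 36 to 42 h and 976, 1262 and 2051 at 43 to 48 h, and these ranges overlapped. For miR-240-3p the range was 5912 to 6891 at 36 to 42 h and 3573 to 5563 at 43 to 48 h, without overlap. For miR-786-5p it was 198 to 324 and 161 to 239, with overlap. The share of all strands with ranges apart in these cycles was not counted, so these ranges are a description only. The highest hour was 30 h for miR-240-5p, 32 h for miR-240-3p as for miR-786-3p, and 36 h for miR-786-5p.

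None of the 4 strands was called in either late step, where 39 of 272 strands (14.3%) were called in either direction at 36 to 42 h against 29 to 35 h and 35 of 272 (12.9%) at 43 to 48 h against 36 to 42 h. The SE of these steps includes the scatter of the earlier rising hours, so small late changes could be missed. No member had an unadjusted p under 0.05 in edgeR in either step, and DESeq2 and limma also called none. At 36 to 42 h miR-240-5p changed by -0.93 ± 0.55 log2 units (adjusted p = 0.162), while the median of all strands moved by -0.25, so that relative to this median it stood at -0.68. The other 3 strands lay between -0.14 and -0.00 log2 units, and between 0.11 and 0.25 relative to the median. At 43 to 48 h, where the median of all strands moved by -0.28 log2 units, the changes were -0.76 ± 0.58 for miR-240-5p, -0.75 ± 0.44 for miR-786-3p, -0.50 ± 0.46 for miR-240-3p and -0.45 ± 0.40 for miR-786-5p. Relative to that median they ran between -0.48 and -0.17. With TMM factors the 36 to 42 h changes of miR-240-3p, miR-786-3p and miR-786-5p were 0.15, 0.21 and 0.05 log2 units, so their sign was set by the scaling. The miR-35 family, known from embryos and the germ line, rose in the same hours. The guides of 7 of its 8 members were called higher at 36 to 42 h, and all 8 at 43 to 48 h. Any part of this family in the late values of the 4 strands was not tested.

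A line over the 7 libraries of 22 to 28 h asked for the rise around 25 h for which the study named these neighbours, so it is not independent evidence of their direction. miR-240-3p rose by 1.86 ± 0.16 log2 units (edgeR adjusted p = 0.000543) and miR-786-3p by 2.13 ± 0.48 (0.0196), and 17 of 272 strands (6.25%) rose. miR-240-5p changed by 1.25 ± 0.59 log2 units (0.131) and miR-786-5p by 1.38 ± 0.56 (0.106), and neither was called. Single hours decided these calls. miR-240-5p was called without the library of 22 h (2.27 log2 units, adjusted p = 0.0168), and miR-786-3p was not called without 23 h, 27 h or 28 h (adjusted p = 0.0685, 0.0571 and 0.0895). Within the window, miR-786-3p was nearly flat to 25 h and most of its rise fell after 26 h, whereas miR-240-3p was higher at each hour than at the hour before.

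The strands the study named beside them for a late rise are given side by side with them. miR-357-3p held 30.3 normalised counts at 16 h, 109 at 22 h and 3350 at 28 h, and miR-358-3p, from the same cluster, held 5.51, 8.09 and 1067 at these hours. miR-85-3p held 21.1, 1413 and 17369, and miR-359 held 93.6, 114 and 163. In the 22 to 28 h line miR-358-3p rose by 6.69 ± 0.64 log2 units, miR-357-3p by 5.03 ± 0.49 and miR-85-3p by 3.47 ± 0.14 (edgeR adjusted p = 0.00102, 0.00119 and 1.05e-05), while miR-359 changed by 0.62 ± 0.17 (0.0572). Of these 4 only miR-85-3p was also called at 15 to 21 h against 8 to 14 h, at 2.28 ± 0.54 log2 units (0.000957), where all strands of miR-240 and miR-786 were called. The difference between the members and these strands was not tested.

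Levels were also expressed as a percent of each strand's highest hour. At 22 h miR-240-5p stood at 29.6%, miR-786-3p at 12.8%, miR-359 at 6.48%, miR-357-3p at 2.74%, miR-85-3p at 1.03% and miR-358-3p at 0.66%. At 28 h miR-358-3p stood at 86.4% and miR-357-3p at 84.2%, and had passed miR-240-5p at 64.8% and miR-786-3p at 53.9%. miR-85-3p was still at 12.7% and miR-359 at 9.25%. At 35 h miR-240-5p had dropped to 37.3% of its peak while miR-786-3p stood at 76.1%, miR-85-3p at 94.1% and miR-359 at 88.5%.

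**Figure D3:**
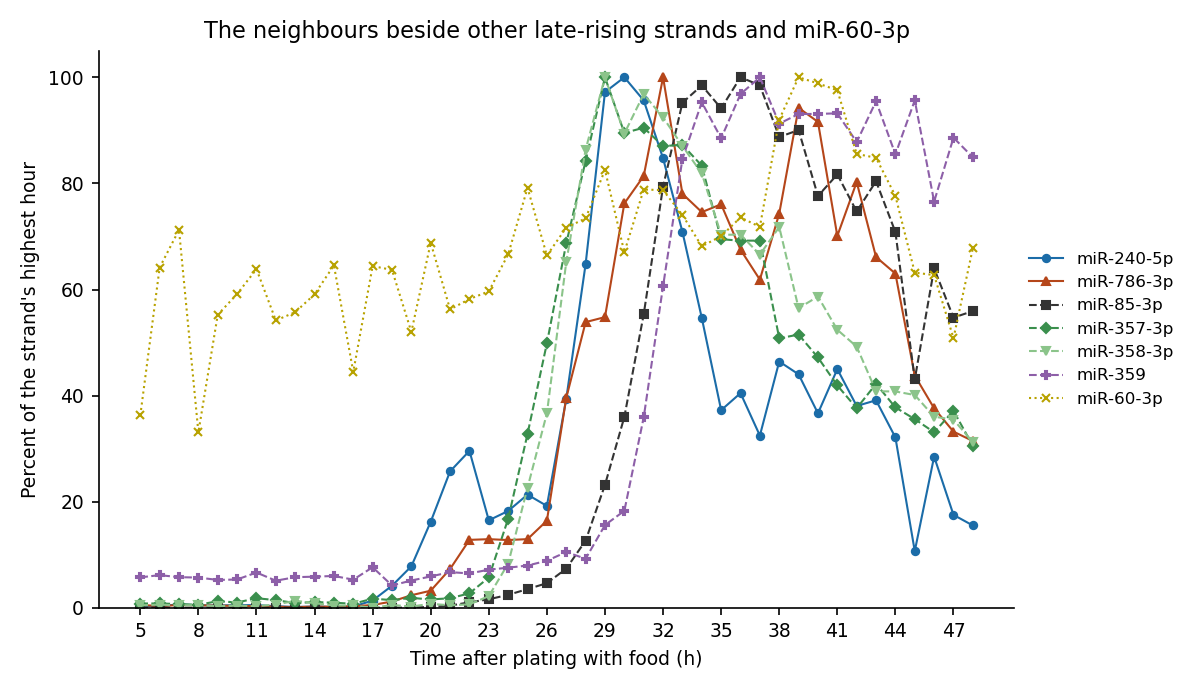
Level of each strand in percent of its own highest hour against hours after plating, 1 library per point, for miR-240-5p and miR-786-3p (solid), the strands the study named with them (dashed) and the intestinal miR-60-3p (dotted). miR-240-5p shows a first peak of 29.6% at 22 h that the dashed strands lack, and miR-60-3p lies above 30% at every hour.

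miR-60-3p, a strand of the intestine, is expressed in the tissue where miR-786 acts, and its level varied far less than that of the members. It held 34894 normalised counts at 16 h, 45662 at 22 h, then 57598 at 28 h and finally 61858 at 31 h, and its fitted change over 8 to 35 h was 0.62 ± 0.12 log2 units (edgeR adjusted p = 7.27e-05), below the limit of 1. The muscle strand miR-1-3p changed by 0.27 ± 0.10 log2 units over the same window, the neuronal strands miR-124-3p and lsy-6-3p by -1.07 ± 0.14 and -2.03 ± 0.10, and miR-228-5p, a strand of hypodermis and glia, by -1.22 ± 0.11. None of these tissue strands changed on the scale of the members. From earlier promoter work, the study lists spermatheca or uterus, among other cells, for its late-rising hairpins, this pair included. It proposes that they take part in uterus formation and sperm production. No strand of those tissues was among the tissue strands here, and the tissue in which the members rose was not tested.

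The timing of each rise was described as the hour at which log2(normalised count + 8) passed the midpoint between the medians of 15 to 21 h and 29 to 35 h and then stayed above it. This was 21.6 h for both miR-240-3p and miR-786-3p, and 26.2 h for miR-786-5p. miR-240-5p crossed its midpoint of 4799 normalised counts by 21 h, lay below it again at 23 h and 24 h, and stayed above from 24.2 h. The hour depended on the scale, since with a midpoint on linear counts it was 27.7 h for miR-240-3p, 27.0 h for miR-786-3p and 28.0 h for miR-786-5p. On that scale miR-240-5p did not stay above its midpoint to 35 h, so no hour is given.

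The next comparison concerned the strands within each hairpin. Over the 44 libraries miR-240-5p averaged 7156 normalised counts against 3076 for miR-240-3p, a 2.33-fold difference, and miR-786-3p averaged 1083 against 123 for miR-786-5p, an 8.79-fold difference. The strand with the higher mean is called the guide here, so the guides lay on opposite arms of these neighbours, 5p in miR-240 and 3p in miR-786. Among the 102 hairpins with both strands tested the median difference was 22.1-fold, and 11 hairpins had strands closer together than those of miR-240, against 35 for miR-786. The roles of the miR-240 strands were thus less clear-cut, and miR-240-3p exceeded miR-240-5p at 13 h, 45 h and 48 h.

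The balance of the miR-240 strands swung widely. The count of miR-240-5p over that of miR-240-3p had a median of 4.07 at 8 to 14 h, 9.75 at 15 to 21 h, 3.55 at 22 to 28 h, 2.73 at 29 to 35 h, 1.64 at 36 to 42 h and 1.45 at 43 to 48 h. From 17 h to 21 h it stayed between 9.43 and 12.6, and no library outside those hours reached 8. It then dropped to 2.43 at 26 h, reached a second maximum of 4.61 at 29 h and dropped to 1.40 at 35 h. The early values rest on few counts, such as 38 against 39 at 13 h.

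The balance of the miR-786 strands moved the other way at first. The count of miR-786-3p over that of miR-786-5p was between 3.57 and 5.50 from 17 h to 21 h, on 2 to 36 counts of miR-786-5p per library. It had a median of 10.4 at 22 to 28 h, 8.96 at 29 to 35 h, 9.73 at 36 to 42 h and 7.20 at 43 to 48 h. Thus when miR-240-5p was in greatest excess over its partner, miR-786-3p was in small excess over its own.

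**Figure D4:**
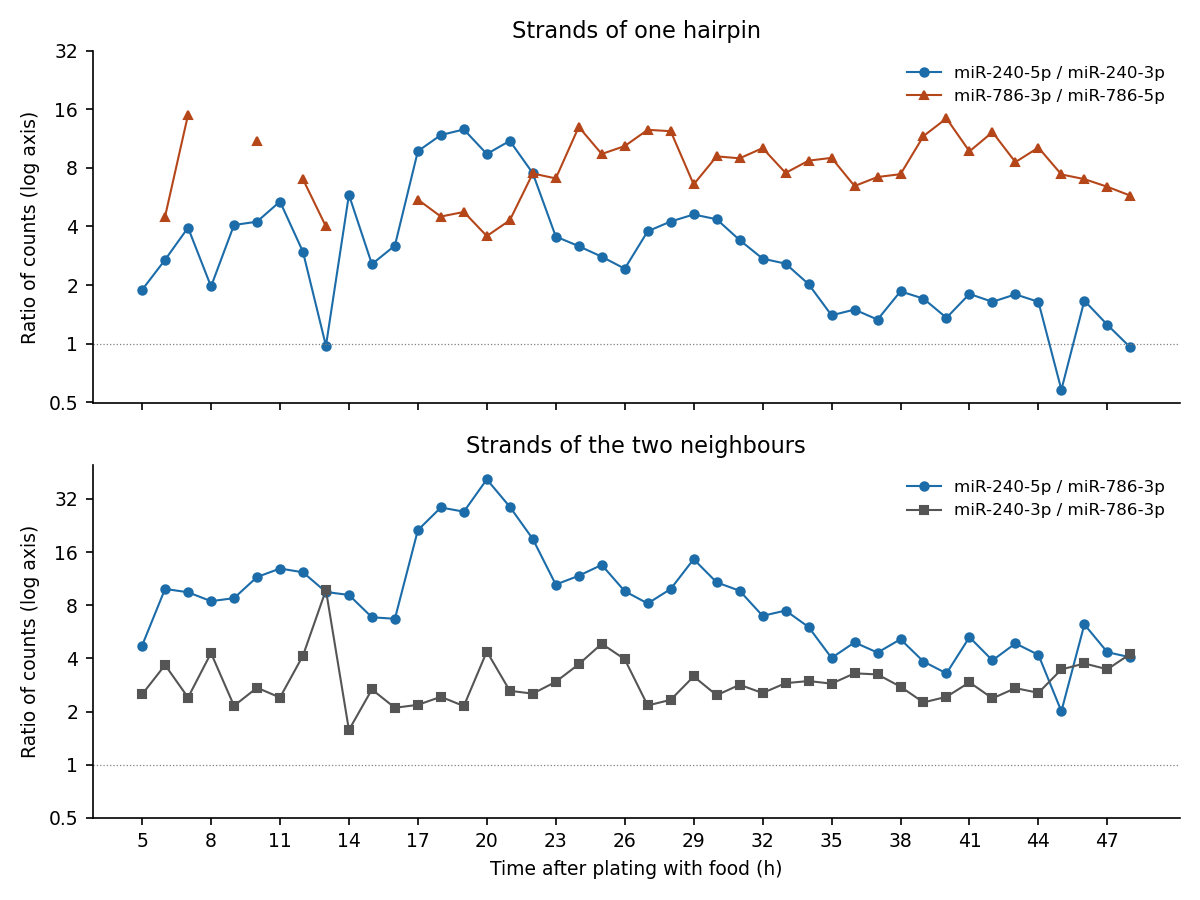
Ratios of counts within each library on a log axis against hours after plating, above for the strands of each hairpin and below for strands of the neighbours; gaps mark libraries without a miR-786-5p count. miR-240-5p over miR-240-3p is between 9.43 and 12.6 from 17 h to 21 h and 1.40 at 35 h, while miR-240-3p over miR-786-3p has medians of 2.42 to 3.46 in all cycles.

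In an edgeR fit with the library as a factor, which does not depend on the scaling, the passenger over guide ratio of 8 to 35 h was not called rhythmic for either hairpin, where 20 of 102 hairpins (19.6%) were called. The amplitude was 0.10 ± 0.24 log2 units for miR-240 (adjusted p = 0.968) and 0.18 ± 0.18 for miR-786 (0.751). Nor was a linear change of the ratio called, at 0.69 ± 0.58 log2 units for miR-240 (0.354) and -0.46 ± 0.57 for miR-786 (0.635), where 28 of 102 hairpins (27.5%) were called in either direction. No unadjusted p of these 4 tests was under 0.05. Over 17 to 35 h, a window chosen after the values had been seen, miR-240-3p rose relative to miR-240-5p by 2.65 ± 0.38 log2 units (adjusted p = 5.51e-05), and miR-786-5p changed relative to miR-786-3p by -0.96 ± 0.37 (0.372), where 25 of 102 hairpins (24.5%) were called in either direction. This window opens in the hours when miR-240-5p was in greatest excess over miR-240-3p. The p-value for miR-240 is therefore no independent evidence of a change.

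The last ratios set the neighbours against each other within each library. The count of miR-240-5p over that of miR-786-3p had a median of 9.50 at 8 to 14 h, 27.1 at 15 to 21 h, 10.5 at 22 to 28 h, 7.46 at 29 to 35 h, 4.31 at 36 to 42 h and 4.26 at 43 to 48 h, with a highest value of 41.3 at 20 h. The count of miR-240-3p over that of miR-786-3p had medians of 2.73, 2.42, 2.95, 2.88, 2.76 and 3.46 in the same cycles. The medians of the 3p ratio thus spanned a far narrower range than those of the guides, while single hours ran from 1.57 at 14 h to 9.75 at 13 h on few counts.

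In the ratio fit over 8 to 35 h the guide of miR-786 rose relative to that of miR-240 by 1.29 ± 0.53 log2 units (edgeR adjusted p = 0.0381), where 13 of 36 neighbouring pairs within 10 kb (36.1%) were called in either direction. The call was lost without any one of the libraries of 17 h, 18 h, 19 h, 20 h, 32 h, 33 h, 34 h or 35 h, with adjusted p-values between 0.052 and 0.103. From 17 h on, a window chosen after the values had been seen, the rise was 2.59 ± 0.33 log2 units (2.25e-06), where 11 of 36 pairs (30.6%) were called in either direction. That window opens in the hours when miR-240-5p was in greatest excess over miR-786-3p, so its p-value is no independent evidence. With miR-240-3p in place of miR-240-5p, also chosen afterwards, it was 0.14 ± 0.30 log2 units (0.674). The ratio of the guides was not called rhythmic, at 0.16 ± 0.20 log2 units (0.914, unadjusted p not under 0.05), where 1 of 36 pairs (2.78%) was called.

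Likeness over the 44 libraries gave the same order. The Pearson correlation of log2(normalised count + 8) was 0.99 between miR-240-3p and miR-786-3p, 0.99 between the strands of miR-786, 0.95 between those of miR-240, and 0.95 between miR-240-5p and miR-786-3p. These are descriptions across hours of one time course, which share each library's scaling and a common rise. Of all tested strands miR-786-3p was the most like miR-240-3p, and the reverse also held. Among strands of other hairpins miR-85-3p came closest to miR-786-3p (0.98), followed by miR-2210-3p (0.95) and miR-59-3p (0.95). For miR-240-5p the closest were let-7-5p (0.93), the guide of a regulator of late larval fates, then miR-250-5p (0.92) and miR-1829c-5p (0.90). let-7-5p held 1613 normalised counts at 16 h, then 64750 at 22 h, still 62427 at 28 h and then 118255 at 31 h.

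A decay model asked whether a guide produced in proportion to its passenger and lost at a constant rate would follow the observed guide. It was fitted by least squares without a test, with half-lives searched from 0.1 h to 200 h. For miR-786 the half-life of miR-786-3p was 0.355 h, with 8.47% of the variance unexplained, and the half-life ran from 0.228 h to 0.457 h as single libraries were left out. On the log2 scale it was 1.04 h with 2.04% unexplained. Over all 102 hairpins the median half-life was 6.75 h and the median unexplained share 19.9%. In this model miR-786-3p thus followed its passenger closely and with little lag. A half-life near or below the hourly spacing of the libraries is not resolved, so its size remains uncertain.

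For miR-240, with miR-240-5p as the guide, the half-life ended at the lowest value searched, 0.1 h, with 38.9% unexplained, as it did for 3 of the 102 hairpins. The model curve stayed below the observed miR-240-5p through both steps of the rise and above it after 35 h. With the roles turned, chosen after the values had been seen, miR-240-3p had a half-life of 3.70 h with 2.08% unexplained, and a half-life of 3.47 h to 3.70 h as single libraries were left out. Thus on linear counts miR-240-3p was described by production in proportion to miR-240-5p with a lag of hours. The reverse described miR-240-5p, the strand with the higher mean, less well. On the log2 scale the fit of miR-240-5p left 11.3% unexplained, again at a half-life of 0.1 h. The turned roles were not fitted on that scale, so the contrast holds for linear counts only.

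**Figure D5:**
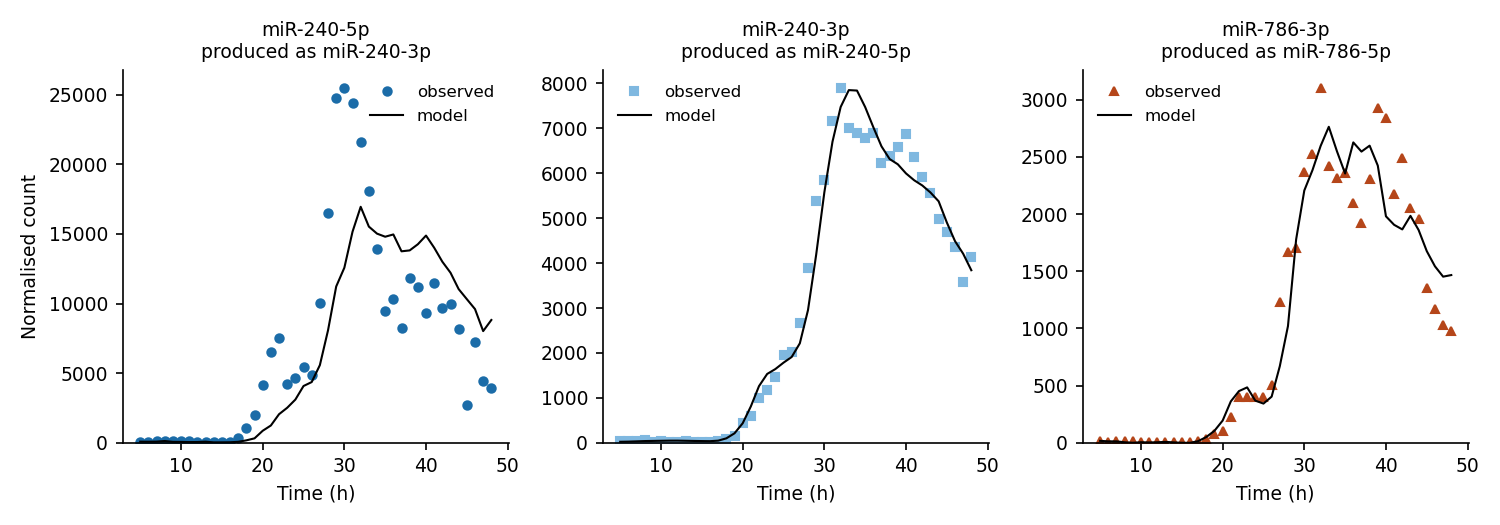
Observed normalised counts (points, 1 library per hour) and the decay model (line) against hours after plating for miR-240-5p, for miR-240-3p with the roles turned, and for miR-786-3p. The unexplained shares are 38.9%, 2.08% and 8.47%, and the line misses the miR-240-5p peak of 25481 at 30 h.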

How the data were processed

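All tests ran on the raw counts that the authors deposited for each mature strand. In the study's methods, the authors aligned reads to ce10 with Bowtie and counted reads starting near annotated 5' ends. The deposited log2 table was made by the authors from these counts (largest gap to own values 0.0005) and was not tested. The filter was a mean count of at least 10, and libraries were scaled by total count. Tests were edgeR 4.0.16 quasi-likelihood fits over all 272 strands in R 4.3.3, with limma 3.58.1, DESeq2 1.42.0 and nlme 3.1.168 for alternatives and Python 3.11.15 for descriptions. The edgeR fits were tried on simulated counts with independent hours and linear or 7 h trends. Correlated hours and rises in steps were not simulated. Hours were labelled singly, so nothing was grouped beyond cycles of hours. Strands named were all members, the closest by correlation, the study's late-rise examples and tissue strands. The members and lists were chosen with earlier results of these data known. Coordinates come from WBcel235 and none were converted. Mature sequences were not used here.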

Additional observations from a re-analysis of the deposited data

How the results depend on the processing

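No paired analysis was possible because each hour has 1 library. For the 38 tested values, 8 of 261 alternative values changed the call (3 lost, 5 gained), as did 22 of 1300 with a single library left out, and no called value changed sign. With autocorrelated residuals on log2(normalised count + 8), 2 of 4 strands kept the call of a rise over 8 to 35 h, and 47 of 272 strands rose. With independent residuals 71 rose in limma on the same values and 76 in edgeR on counts. In the 22 to 28 h line, leaving out single libraries gave between 1 and 3 called strands. The guide ratio of the neighbours changed by 1.04 to 1.59 log2 units as single libraries were left out, and by 0.14 with miR-240-3p. Over 17 to 35 h, a window chosen after the values had been seen, 1 of the pair's strand ratios was called, as were 25 of 102 hairpins. A linear midpoint put the rise at 27.7 h for miR-240-3p, 27.0 h for miR-786-3p and 28.0 h for miR-786-5p. In the decay model, turning the miR-240 roles gave 3.70 h and 2.08% unexplained, and a log2 scale gave 11.3% for miR-240 and 1.04 h and 2.04% for miR-786. The cause of these shifts was not tested. With TMM factors 24 strands rose and 15 fell at 36 to 42 h, against 18 and 21 by total count, and 30 rose and 3 fell at 43 to 48 h, against 27 and 8. With DESeq2 size factors these were 21 and 16, and 30 and 3. Depth limits statements on miR-786 before 17 h, where 9 libraries from 8 h held 82 counts of miR-786-3p and 3 of miR-786-5p.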

Other observations

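At 45 h miR-240-5p held 2724 normalised counts (95% Poisson interval 2629 to 2822), against 8184 at 44 h and 7262 at 46 h. This was 0.353 of the mean of the adjacent hours, the 8th lowest of 272 strands in that library, where the median strand stood at 0.948. The other members did not share the dip to this extent, as miR-240-3p held 4699 at 45 h, against 4989 at 44 h and 4365 at 46 h, and miR-786-3p held 1358, against 1954 and 1167. In the shallow library of 38 h miR-240-5p held 11830 normalised counts, 1.43-fold its 37 h level, and miR-786-3p held 2305.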
